A study of Macaca mulatta with 27 samples.

Results

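The 10 genes described here, SSB, SEPHS1, DGKK, ISOC1, KIAA1551, LCK, PDE4B, JADE2, SPP1 and AADACL3, are genes outside the core pluripotency network that fell steeply when rhesus pluripotent stem cells were moved out of the primed state. They were selected on their measured fall from primed cells and looked up by symbol, and all 10 were found among the 17967 gene symbols with counts. Because that fall chose them, every difference from primed cells is given for them as a description with its standard error (SE) and without a p-value. The comparisons that were tested are those between naive protocols, in which no primed library takes part, and those of other genes from the same families and pathways.

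The data were bulk mRNA sequencing counts from 27 libraries of rhesus embryonic stem cells (ESCs), 6 of primed cells and 3 for each of 7 protocols meant to bring primed cells to the naive state. The cells were of the LyonES-tGFP-(S3) line, a single clone that carries a tauGFP reporter under the ubiquitous CAG promoter and a lentiviral STAT3-ERT2 transgene, a form of the transcription factor STAT3 that tamoxifen switches on. Both transgenes were therefore shared by primed and reprogrammed cells, and all groups describe 1 cell line. TL2i cells received tamoxifen, LIF and inhibitors of MEK and GSK3β, and TL-CDK8/19i cells (TL-CDK8i in the sample labels) received tamoxifen and LIF with CNIO-47799, an inhibitor of the Mediator kinases CDK8 and CDK19, in place of those inhibitors. E-NHSM, NHSM-v, 4i/L/b, t2iLGöY and LCDM (EPS) are reprogramming protocols described before, applied without tamoxifen. Nothing in the labels says whether libraries of a group came from separate cultures, so p-values measure the spread between these libraries, which may be technical.

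Levels are read counts scaled to a common library size (CPM), and adjusted between libraries by trimmed mean of M values (TMM), and they are not corrected for transcript length, so they are compared between groups and never between genes. The libraries held between 7111886 and 20760914 counts, with a median of 12201171. The columns of primed cells carry the letters J and K, with 3 libraries each, which no sample label explains. In these bulk samples fewer cells that use a gene and less RNA of that gene per cell cannot be told apart. The summed level of 10 core pluripotency genes was 6250 to 7120 CPM in primed, 7280 to 7350 in E-NHSM and 1950 to 2660 in TL-CDK8/19i libraries, and 132 to 631 in those of the other 5 protocols. Its members were unlike, with DNMT3B the largest in primed cells (mean 3100 CPM). POU5F1 had a mean of 1180 CPM in primed cells and 0.29 to 6.44 in those 5 protocols, and NANOG 134 and at most 0.317. SOX2 was at 271 CPM in primed cells, 329 in LCDM (EPS) and 74.6 in 4i/L/b. PRDM14 was at 277 CPM in primed and 94.3 in E-NHSM cells. Markers of other lineages moved with the groups as well. The sum of 9 neural markers was 67 to 124 CPM in primed and 99.9 to 119 in E-NHSM libraries, 199 to 272 in TL-CDK8/19i, 526 to 559 in TL2i, 640 to 722 in 4i/L/b, 1090 to 1150 in NHSM-v, 2350 to 2580 in t2iLGöY and 3530 to 3920 in LCDM (EPS). The sum of 9 fibroblast markers was 536 to 863 CPM in primed libraries, 331 to 357 in E-NHSM, 245 to 360 in LCDM (EPS), 491 to 572 in t2iLGöY, 1820 to 3050 in TL2i, 2550 to 3140 in TL-CDK8/19i, 2860 to 3030 in NHSM-v and 4600 to 6100 in 4i/L/b. Most of that sum was COL1A2, COL3A1 and COL6A3. Against primed cells, 4 of the 9 were called higher in the average of the other 5 protocols and 2, THY1 and S100A4, lower. Over all genes, 34.4% were called higher and 34.2% lower there. In TL2i cells THY1 was at 13.1 CPM, beside 74 in primed cells, and S100A4 at 0.927, beside 61.8. The part of cells of these other lineages in the values below was not tested.

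Primed pluripotent cells resemble the epiblast shortly before gastrulation, and protocols for the naive state try to bring them to an earlier, more open state. The core of the network that holds pluripotency is a small group of transcription factors, and the products of the 10 genes work beside it, in RNA handling, chromatin, signalling and metabolism. The list of core pluripotency genes used for comparison is wider than those factors and also holds DNMT3B, LIN28A and TDGF1. SSB, KIAA1551 and JADE2 encode nuclear proteins, LCK, PDE4B and DGKK signalling enzymes, SEPHS1, ISOC1 and AADACL3 proteins of enzyme families of metabolism, and SPP1 a secreted protein.

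In cells of 5 protocols, TL2i, LCDM (EPS), t2iLGöY, 4i/L/b and NHSM-v, all 10 genes lay below primed cells, with no overlap between any of these 15 libraries and the 6 primed ones. Such a complete separation downward was seen for 11.2% of all genes tested, and, as the fall chose the 10 genes, nothing is read from their count. The log2 fold change against primed cells, averaged over these 5 protocols, ran from -9.25 for LCK to -1.66 for ISOC1, with a median of -5.17 over the 10 genes, against -7.5 over 10 core pluripotency genes and 0.04 over all 14475 genes tested. LCK and AADACL3 were at or under 3 counts in every library of some protocols, where a fitted value is no bound. With those protocols set to a floor of 3 counts per library, their log2 fold changes were -8.17 and -4.82, and the medians were -4.83 over the 10 genes and -6.89 over the core genes. In the order of fitted fold changes from the lowest, SPP1 was number 49, whereas ISOC1 was number 1197. The genes therefore span a wide range of loss, from transcripts that went to 0 counts to one that kept at least 23% of its primed level.

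E-NHSM and TL-CDK8/19i cells differed from that pattern and from each other. In E-NHSM cells 7 genes lay below all primed libraries, SSB and AADACL3 lay above all of them and PDE4B overlapped them, and the level kept had a median of 42.4% of the primed mean. Over all genes tested, 14.8% lay wholly below and 14.6% wholly above primed cells in E-NHSM. In TL-CDK8/19i cells 8 genes lay below all primed libraries and SPP1 and AADACL3 above all of them, with a median of 31.9%, where 20.0% of all genes lay wholly below and 26.1% wholly above. In E-NHSM cells 4 genes kept over 50% of the primed mean, AADACL3 (145%), SSB (117%), PDE4B (79.8%) and LCK (57.3%), and in TL-CDK8/19i cells 2 did, SPP1 (199%) and AADACL3 (147%). The medians in the other 5 protocols were 9.91% in TL2i, 3.92% in t2iLGöY, 3.82% in 4i/L/b, 2.48% in LCDM (EPS) and 2.29% in NHSM-v.

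**Figure D1:**
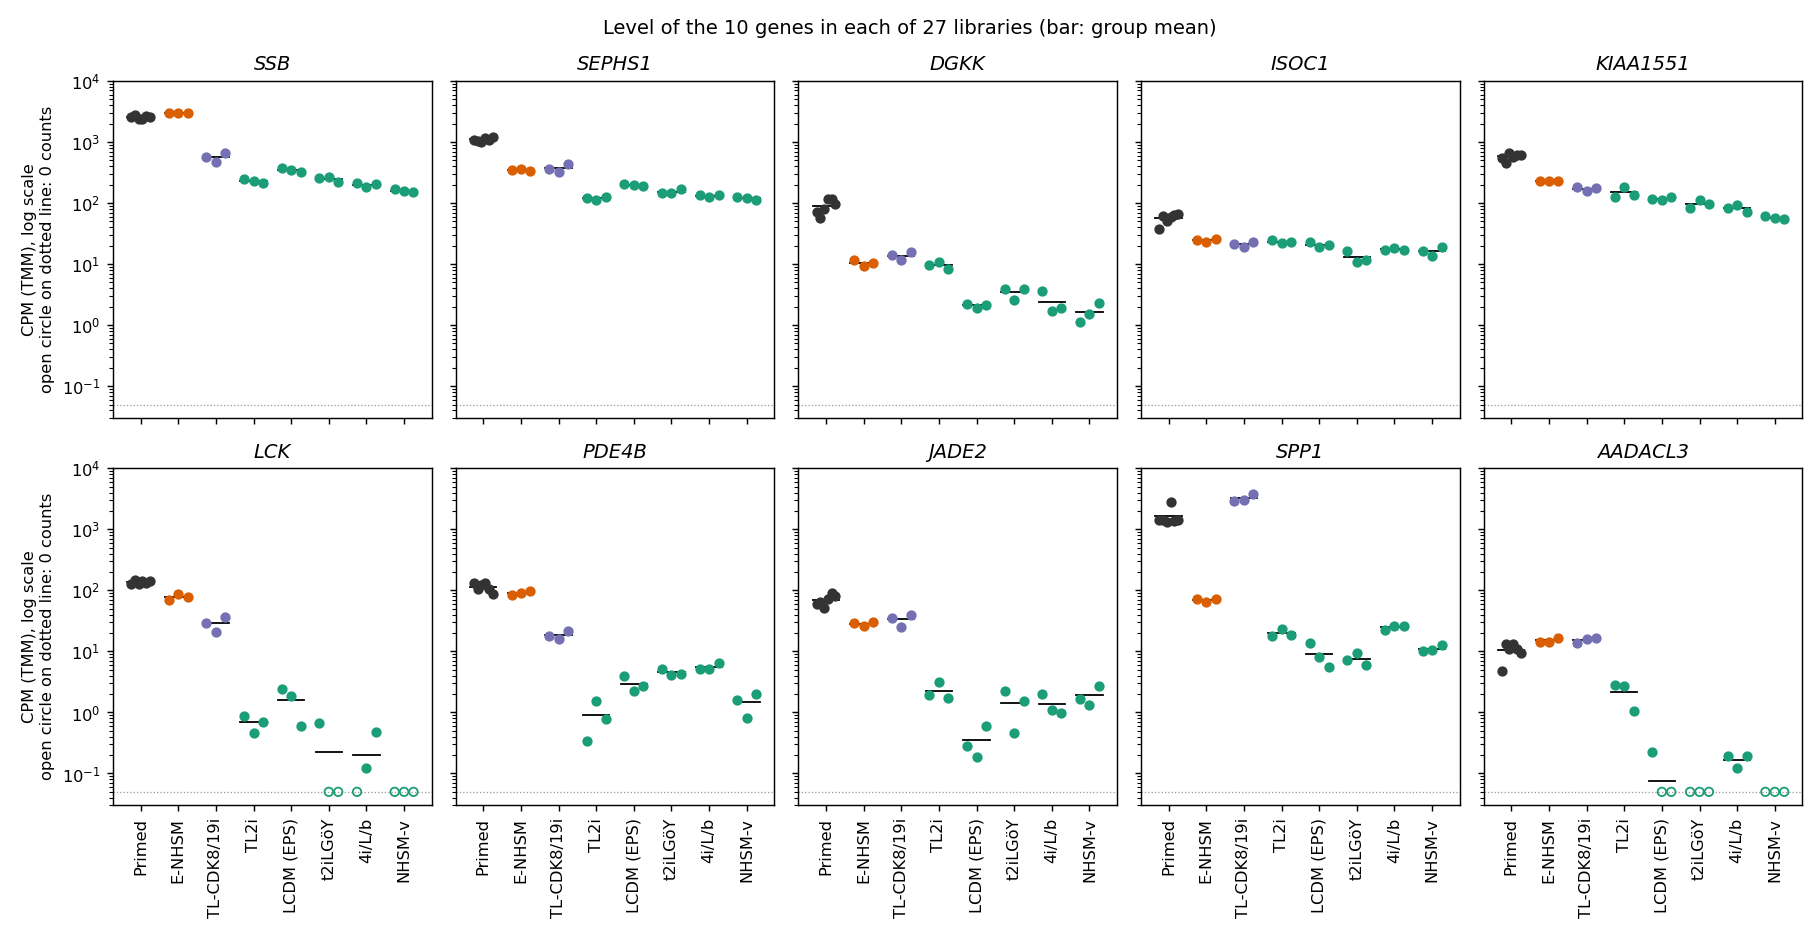
Level of each of the 10 genes in CPM (vertical axis, log scale) in every library of the 8 groups (horizontal axis), with 1 point per library, a bar at the group mean, and open circles on a dotted line for libraries with 0 counts. SSB is just above the primed libraries in E-NHSM and SPP1 above the primed mean in TL-CDK8/19i, while LCK and AADACL3 reach 0 counts in some of the other 5 protocols.

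SSB encodes the La protein, which binds the ends of new RNA polymerase III transcripts and protects them. Its level in primed cells ran from 2360 to 2770 CPM, with a median of 2610. The E-NHSM libraries held 3030, 2970 and 3020 CPM and the TL-CDK8/19i libraries 577, 468 and 664 CPM. Every E-NHSM library was above every primed one and every TL-CDK8/19i library far below, and the 15 libraries of the other 5 protocols, at 154 to 369 CPM, were lower still. The log2 fold change against primed cells was 0.22 (SE 0.05) in E-NHSM, -2.22 (SE 0.10) in TL-CDK8/19i and -3.47 (SE 0.05) in the average of the other 5 protocols. Of the 5, LCDM (EPS) cells kept the most, 13.7% of the primed mean, and NHSM-v cells the least, 6.28%. How the counting treated reads shared with near-identical copies is not given in the sources used here, so the SSB level is uncertain to that extent, and SSB overlaps METTL5 in the RefSeq gene table of assembly T2T-MMU8v2.0. METTL5 was at 15.1 CPM in primed cells and fell by 0.64 on the log2 scale in the average of the 5 protocols (SE 0.21, adjusted p = 0.0088, edgeR).

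KIAA1551, also called RESF1, encodes the retroelement silencing factor, a partner of the histone methyltransferase SETDB1. The primed libraries held 462 to 671 CPM with a median of 594. The 3 E-NHSM libraries stood at 230, 230 and 231 CPM and the TL-CDK8/19i libraries at 184, 155 and 178 CPM. All of these were below the lowest primed library, and the TL-CDK8/19i and TL2i libraries (128, 185 and 137 CPM) overlapped each other. Log2 fold changes against primed cells were -1.34 (SE 0.10) in E-NHSM, -1.80 (SE 0.11) in TL-CDK8/19i and -2.59 (SE 0.08) in the average of the other 5 protocols, in which NHSM-v cells kept 9.96% and TL2i cells 25.9% of the primed mean.

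JADE2 encodes a PHD finger protein that acts as scaffold of the histone acetyltransferase HBO1 (KAT7). It ranged from 51.9 to 89.9 CPM in primed cells, with a median of 68.4. In E-NHSM the libraries held 29.4, 26.1 and 29.8 CPM, and in TL-CDK8/19i 35.2, 25.2 and 39.9 CPM. The libraries of these 2 protocols overlapped each other and lay below all primed ones, and those of the other 5 protocols, at 0.189 to 3.2 CPM, lay below both. JADE2 was thus a gene of which E-NHSM cells kept 40.5% (SD 2.92, n = 3) and TL-CDK8/19i cells 47.7% (SD 10.7, n = 3) of the primed mean, while TL2i cells, which kept the most of the other 5, were at 3.26%. The log2 fold change against primed cells was -1.31 (SE 0.17) in E-NHSM, -1.12 (SE 0.19) in TL-CDK8/19i and -5.80 (SE 0.20) in the average of the 5.

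LCK is a tyrosine kinase of the Src family, known for signalling from the T cell receptor. Primed libraries held 128 to 148 CPM with a median of 137, the narrowest spread of the 10 genes. The level was 69.6, 88.9 and 77.2 CPM in E-NHSM and 29.3, 20.7 and 36.2 CPM in TL-CDK8/19i libraries. These groups did not overlap each other or primed cells. In TL2i it was 0.882, 0.466 and 0.707 CPM and in LCDM (EPS) 2.39, 1.89 and 0.596 CPM. Of the t2iLGöY libraries 1 held 10 counts and the others 0, the 4i/L/b libraries held 0, 1 and 5 counts, and all 3 NHSM-v libraries held 0. LCK was therefore close to or below what these depths can measure in 3 protocols, and in NHSM-v, taking 3 counts per library as the floor, it was at least 451-fold lower than in primed cells. The log2 fold change against primed cells was -0.81 (SE 0.11) in E-NHSM and -2.30 (SE 0.16) in TL-CDK8/19i. Of 9 T cell markers with counts, CD3D, CD3E, CD2 and PTPRC were at 0 in all primed libraries. The sum of the 9 was 1.45 to 7.48 CPM there, and at most 13.9 CPM in any library of the series. CD3G went the other way, from a mean of 1.85 CPM in primed cells to 0 in the 5 protocols (adjusted p = 2.7e-05, edgeR). It was the 1 of 4 tested T cell markers called lower in their average, where 34.2% of all genes were. In TL-CDK8/19i cells CD3G was at 0.0322 CPM (adjusted p = 0.03, edgeR) and in E-NHSM cells at 1.08 CPM (adjusted p = 0.72).

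PDE4B hydrolyses cyclic AMP and so ends its signal. Primed cells ran from 86.8 to 133 CPM, with a median of 114. The E-NHSM libraries, at 84.9, 91.8 and 97.2 CPM, overlapped the primed range, and PDE4B was the only one of the 10 genes to do so in any protocol. The TL-CDK8/19i libraries held 18.1, 16.1 and 22 CPM, and the other 15 libraries 0.343 to 6.55 CPM, with TL2i (0.785% of the primed mean) lowest and 4i/L/b (4.94%) highest. Log2 fold changes were -0.33 (SE 0.13) in E-NHSM, -2.66 (SE 0.17) in TL-CDK8/19i and -5.50 (SE 0.15) in the average of the 5 protocols.

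DGKK is a diacylglycerol kinase, which turns the lipid messenger diacylglycerol into phosphatidic acid. The primed libraries split by column letter, with 70.4, 57.2 and 78.7 CPM in the J columns and 115, 118 and 94.8 CPM in the K columns. DGKK was the only one of the 10 genes called in the comparison of K with J (log2 fold change 0.66, SE 0.15, adjusted p = 0.019, edgeR), in which 3.73% of all genes were called. It held 11.8, 9.18 and 10.6 CPM in E-NHSM, 14, 11.6 and 15.5 CPM in TL-CDK8/19i and 9.66, 11 and 8.2 CPM in TL2i libraries. All 9 were far below either set of primed columns, and E-NHSM overlapped both TL-CDK8/19i and TL2i. The remaining 12 libraries were at 1.13 to 3.9 CPM. Log2 fold changes were -3.08 (SE 0.23) in E-NHSM, -2.75 (SE 0.24) in TL-CDK8/19i and -4.84 (SE 0.15) in the average of the 5 protocols.

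SEPHS1 belongs to the selenophosphate synthetases but lacks the selenocysteine of SEPHS2, and is known for a role in redox balance. It ranged from 1020 to 1220 CPM in primed cells, with a median of 1080. The E-NHSM libraries held 347, 360 and 333 CPM and the TL-CDK8/19i libraries 360, 327 and 438 CPM. Both groups kept close to the same share, 31.5% (SD 1.23, n = 3) and 34.1% (SD 5.19, n = 3) of the primed mean, and overlapped each other. Libraries of the other 5 protocols stood at 112 to 207 CPM, which was 10.8% of the primed mean in NHSM-v and 17.9% in LCDM (EPS). The log2 fold changes were -1.67 (SE 0.07), -1.60 (SE 0.10) and, for the average of the 5, -2.95 (SE 0.05).

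ISOC1 encodes an isochorismatase domain protein whose role in mammals is little known. Averaged over the 5 protocols, it showed the mildest fall of the 10 genes, though PDE4B and LCK fell less in E-NHSM and JADE2 fell less in TL-CDK8/19i. The primed libraries ran from 38.2 to 65.3 CPM with a median of 60.4. It held 25.3, 23.4 and 26.1 CPM in E-NHSM and 21.6, 19.1 and 22.7 CPM in TL-CDK8/19i libraries. The 15 other libraries were at 10.8 to 24.9 CPM, and E-NHSM, TL2i, TL-CDK8/19i and LCDM (EPS), taken in the order of their means, each overlapped the next. ISOC1 was thus the gene for which E-NHSM and TL-CDK8/19i stood least apart from the other protocols, with log2 fold changes of -1.18 (SE 0.17) and -1.46 (SE 0.18) beside -1.66 (SE 0.11) for the average of the 5.

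AADACL3 is a predicted hydrolase related to arylacetamide deacetylase. It was detected in every primed library at 4.8 to 13.3 CPM, with a median of 11.1. It held 14.4, 14.3 and 16.7 CPM in E-NHSM and 13.7, 16.1 and 16.3 CPM in TL-CDK8/19i libraries. Both groups lay above all primed libraries, but only just, and the log2 fold changes of 0.53 (SE 0.30) and 0.50 (SE 0.30) were less than 2 SE. TL2i cells kept 21% of the primed mean, with 2.79, 2.74 and 1.06 CPM. The LCDM (EPS) libraries held 4, 0 and 0 counts, and the t2iLGöY and NHSM-v libraries held 0, which made AADACL3 at least 50.5-fold and at least 34.4-fold lower there than in primed cells with 3 counts per library as the floor. The 4i/L/b libraries held 2, 1 and 2 counts, 1.61% of the primed mean with a 95% Poisson interval from 0.535% to 3.84% that covers counting error only. AADACL3 was kept in full or lost almost whole, and TL2i alone stood between.

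SPP1 encodes osteopontin, a secreted protein of bone and other matrices that binds integrins and CD44. Of the primed libraries 5 held 1300 to 1450 CPM and the other, K1, held 2810 CPM. The TL-CDK8/19i libraries stood at 2880, 3000 and 3830 CPM, and the E-NHSM libraries at 73.3, 64 and 71.6 CPM. TL-CDK8/19i cells were thus above all primed libraries, with K1 just beneath them, and E-NHSM cells far below all of them, and the other 15 libraries, at 5.58 to 26.6 CPM, were lower again. The log2 fold change against primed cells was 0.94 (SE 0.20) in TL-CDK8/19i, 1.18 without K1, and 0.74 to 1.19 over all alternatives run. It was -4.55 (SE 0.23) in E-NHSM and -6.95 (SE 0.14) in the average of the 5 protocols. Libraries with much SPP1 were not always those with a high sum of 5 osteoblast markers. That sum was 789 to 1960 CPM in primed, 343 to 353 in E-NHSM and 6590 to 8630 in TL-CDK8/19i libraries. It was 7880 to 10100 in 4i/L/b, 6180 to 6730 in NHSM-v, 1580 to 3400 in TL2i, 642 to 794 in LCDM (EPS) and 2950 to 3490 in t2iLGöY libraries. Most of it was the collagen gene COL1A1, with means of 1290 CPM in primed and 7380 in TL-CDK8/19i cells. ALPL was at 131 and 172 CPM there, BGLAP at 4.31 and 1.23, PHEX at 2.49 and 2.12 and SP7 at 0.582 and 0.762. The sum of 8 macrophage markers was at most 34.7 CPM in any library.

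**Figure D2:**
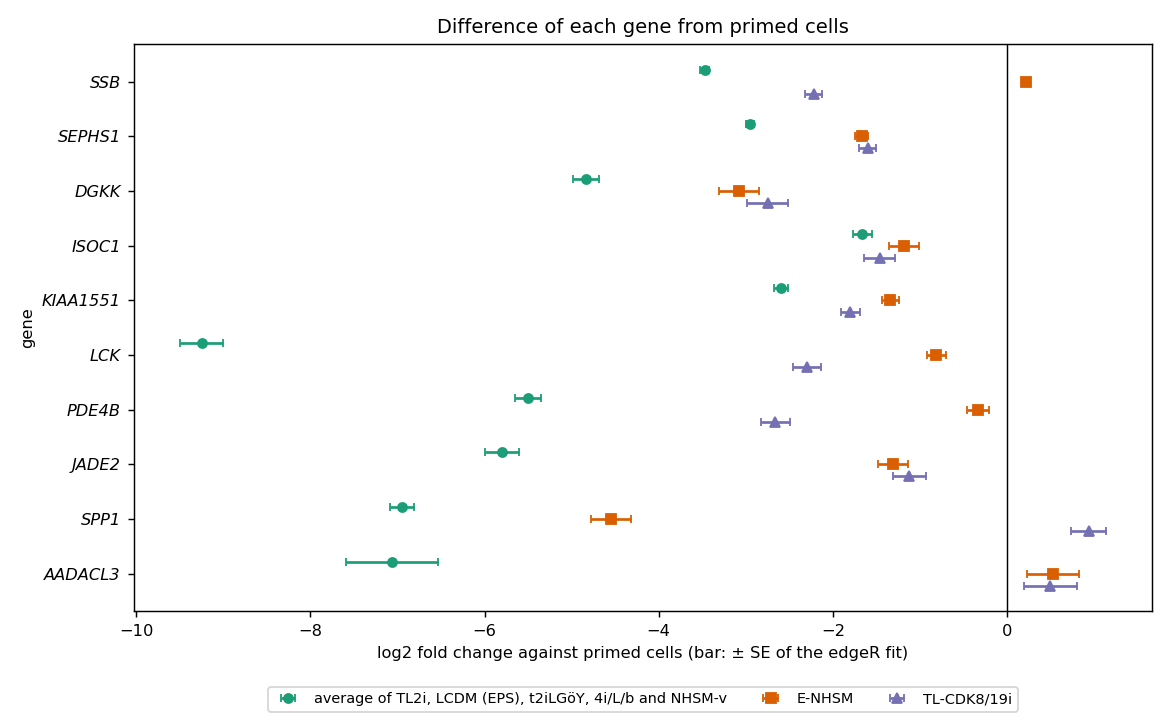
Log2 fold change against primed cells (horizontal axis) of each of the 10 genes (vertical axis) in E-NHSM cells (squares), TL-CDK8/19i cells (triangles) and the average of the other 5 protocols (circles), with bars of ± SE from the edgeR fit. SSB and AADACL3 are right of 0 in E-NHSM and SPP1 and AADACL3 in TL-CDK8/19i, and all 10 circles are left of 0, from -9.25 for LCK to -1.66 for ISOC1. The circles of LCK and AADACL3 are fitted values that include libraries at 0 counts.

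The 2 protocols that kept some of the genes were compared with each other directly, in a fit of their 6 libraries alone. TL-CDK8/19i cells held less SSB, PDE4B, LCK and KIAA1551 than E-NHSM cells and more SPP1, and the other 5 genes did not pass the test. SSB was 5.3-fold lower in TL-CDK8/19i (log2 fold change -2.40, SE 0.11, adjusted p = 1.3e-09), and PDE4B 4.88-fold lower (-2.29, SE 0.14, adjusted p = 1.8e-08). LCK was 2.74-fold lower (-1.45, SE 0.18, adjusted p = 1.3e-05) and KIAA1551 1.34-fold lower (-0.42, SE 0.08, adjusted p = 0.00075). SPP1, the extracellular member, was 46.2-fold higher (5.53, SE 0.12, adjusted p = 7.8e-12). In each of these 5 genes the 3 libraries of one protocol lay wholly on one side of the 3 of the other. All p-values are from edgeR's quasi-likelihood test with Benjamini-Hochberg adjustment over 13651 genes, of which 29.0% were called lower and 30.8% higher in TL-CDK8/19i, so 5 of 10 genes called is no more than all genes showed.

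For the genes that did not pass the test the data set limits on the difference. The log2 fold change of TL-CDK8/19i against E-NHSM was 0.11 for SEPHS1 (95% interval -0.11 to 0.32, adjusted p = 0.37), the tightest limit of the 5. It was 0.23 for JADE2 (-0.15 to 0.61, adjusted p = 0.28) and -0.24 for ISOC1 (-0.59 to 0.10, adjusted p = 0.2). DGKK, at 0.37, had the widest interval (-0.11 to 0.86, adjusted p = 0.17), and AADACL3 stood at 0.01 (-0.40 to 0.43, adjusted p = 0.96).

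**Figure D3:**
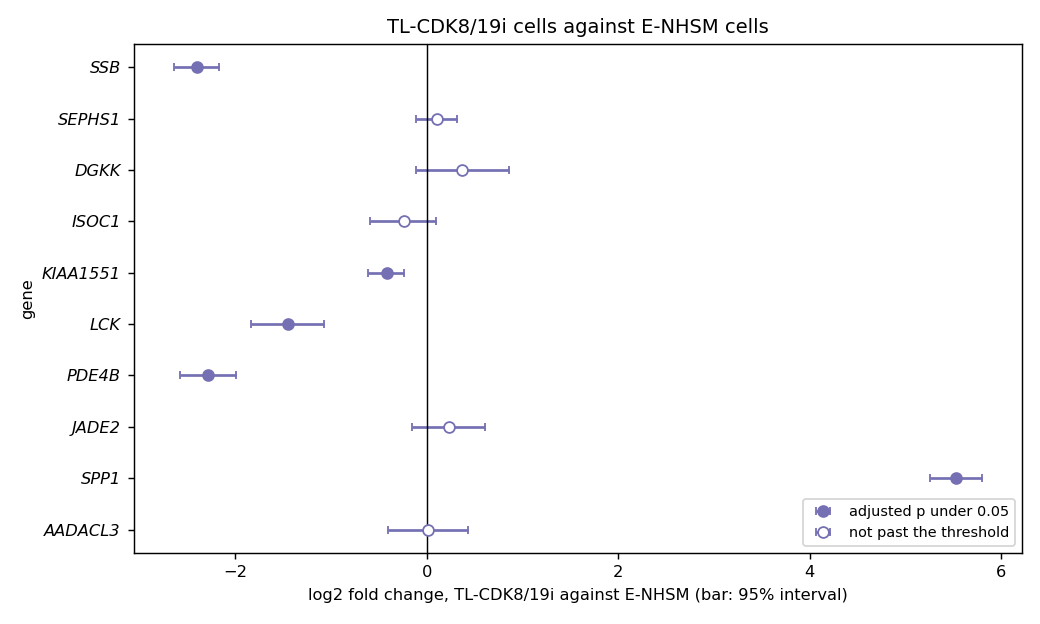
Log2 fold change of TL-CDK8/19i against E-NHSM cells (horizontal axis) for each of the 10 genes (vertical axis), with 95% intervals; filled points passed the test at an adjusted p under 0.05. SPP1 stands alone at 5.53, 4 filled points lie left of 0, from -2.40 for SSB to -0.42 for KIAA1551, and the intervals of the 5 open points include 0.

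TL-CDK8/19i and TL2i cells share tamoxifen and LIF and differ in the inhibitors. Beside TL2i, TL-CDK8/19i cells held more SPP1 (log2 fold change 7.30, SE 0.17), LCK (5.32, SE 0.29), PDE4B (4.37, SE 0.36), JADE2 (3.83, SE 0.25) and AADACL3 (2.74, SE 0.29). The differences were 1.62 (SE 0.11) for SEPHS1, 1.27 (SE 0.12) for SSB, 0.48 (SE 0.19) for DGKK, 0.17 (SE 0.13) for KIAA1551 and -0.16 (SE 0.14) for ISOC1. These values are descriptions, given without a test.

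How much remained of each gene also differed among the 5 protocols that lost them. An F test with 4 degrees of freedom over their 15 libraries, without primed cells, called 9 of the 10 genes, at adjusted p-values from 2.7e-10 for SSB to 0.015 for LCK (edgeR), and JADE2 missed the threshold (adjusted p = 0.064). Of all 14233 genes tested 80.0% were called, so the count is close to the background. The order of the protocols differed from gene to gene. NHSM-v cells had the lowest mean for SSB, SEPHS1, DGKK, KIAA1551 and LCK, and shared the lowest, at 0 counts, for AADACL3. LCDM (EPS) cells had the highest mean of the 5 for SSB, SEPHS1 and LCK and the lowest for JADE2, at 0.285, 0.189 and 0.596 CPM. TL2i cells had the highest mean for DGKK, ISOC1, KIAA1551, JADE2 and AADACL3 and the lowest for PDE4B, at 0.343, 1.57 and 0.778 CPM. 4i/L/b cells had the highest mean for PDE4B and SPP1, and t2iLGöY cells the lowest for ISOC1 and SPP1. Neighbours in these orders often overlapped, as the TL2i libraries did with those of 4i/L/b for SPP1.

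Within primed cells the 10 genes differed in how steady they were. LCK, SSB and SEPHS1 varied least, with a highest over lowest library of 1.15, 1.17 and 1.2. AADACL3 varied most, at 2.76, through the J1 library at 4.8 CPM, followed by SPP1 at 2.15 and DGKK at 2.06. Apart from DGKK, no gene passed the test of K against J columns, with log2 differences from -0.14 for PDE4B to 0.44 for JADE2 (adjusted p from 0.13 to 0.92, edgeR).

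The families and pathways of the 10 genes were examined to see what the genes beside them did. A set of 9 lists, chosen by function, held 134 symbols, of which 127 had counts. In the average of the 5 protocols 52 of 120 tested list genes were lower and 35 higher than in primed cells, or 43.3% and 29.2%, beside 34.2% and 34.4% of all genes. In E-NHSM cells 27 of 115 were lower and 11 higher, beside 15.1% and 11.1% of all genes. In TL-CDK8/19i cells 37 of 117 were lower and 29 higher, beside 23.8% and 22.3%. Adjusted p-values here and below are from edgeR over all genes tested. The plot of family genes sets the lists beside the 10 genes, which were chosen for their fall, so nothing is read from their place among their relatives.

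**Figure D4:**
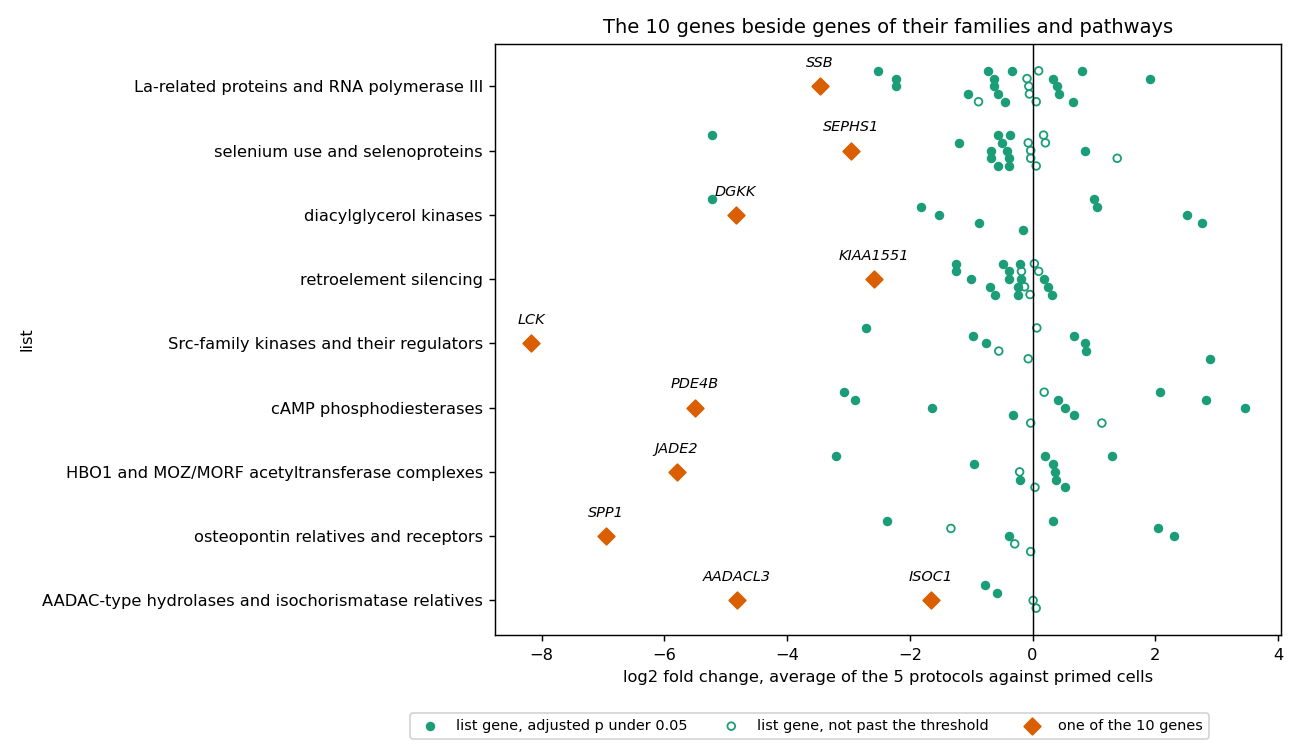
Log2 fold change against primed cells, averaged over the 5 protocols (horizontal axis), for 116 tested genes of 9 lists (vertical axis; filled circles passed the test at an adjusted p under 0.05) and for the 10 genes (diamonds). Protocols at or under 3 counts in every library are set to that floor, and PDE1A, PDE11A, DIO3 and IBSP, whose primed mean is at or under it, are not drawn. The list genes lie on both sides of 0, from -5.22 for SEPP1 and DGKB to 3.46 for PDE1C, and the diamonds stand where the choice of the genes put them.

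The list for SSB held La-related proteins, its relatives, and genes of RNA polymerase III, which makes the transcripts that La binds. Of these 22 genes 10 were lower and 6 higher when the 5 protocols were averaged, and the median log2 fold change was -0.21. POLR3G, a polymerase III subunit known for its high level in pluripotent cells, fell by 2.51 (SE 0.10, adjusted p = 1.8e-17), and LARP1B fell by 2.23 (SE 0.09, adjusted p = 1e-17). BRF1, a subunit of the polymerase's initiation factor, rose by 0.80 (SE 0.12, adjusted p = 1.3e-06) and LARP6 by 1.92 from 1.43 CPM (SE 0.52, adjusted p = 0.002). In E-NHSM cells POLR3G and LARP1B, at 0.17 (adjusted p = 0.42) and 0.02 (adjusted p = 0.93), did not pass the test, and in TL-CDK8/19i cells they fell by 1.02 (adjusted p = 0.00019) and 1.83 (adjusted p = 1.8e-07). Of the whole list, 2 of 22 were lower and 2 higher in E-NHSM and 7 lower and 1 higher in TL-CDK8/19i.

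Of 20 genes of retroelement silencing, the pathway of KIAA1551, 12 were lower and 3 higher, with a median of -0.22, and the changes were small. HELLS, a chromatin remodeller, and ATF7IP2, a cofactor of SETDB1, each fell by 1.24 (adjusted p = 4.7e-16 and 1.1e-09), whereas CBX5 and ATF7IP rose by 0.26 and 0.31 (adjusted p = 0.019 and 3e-05). In TL-CDK8/19i cells 13 of the 20 were lower and 2 higher. In E-NHSM cells 7 were lower and 1 higher.

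Of 11 genes of the HBO1 and MOZ/MORF acetyltransferase complexes, 3 were lower and 6 higher, with a median of 0.21. JADE1, a paralog of JADE2 in the same complex, fell by 3.20 (SE 0.07, adjusted p = 1.1e-22) and the enzyme KAT7 by 0.96 (SE 0.06, adjusted p = 3.9e-13), while BRPF3 and KAT6A, subunits of other complexes of the family, rose by 0.53 and 1.29 (adjusted p = 2.2e-07 and 4.3e-13). JADE3, singled out after its values were seen, was at 43 CPM in primed cells and 35.7 to 57.3 CPM in the means of the 5 protocols (log2 fold change 0.04, adjusted p = 0.71). In E-NHSM 5 of the 11 were lower and in TL-CDK8/19i 7 were lower, and the rest did not pass the test.

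Among 10 tested Src-family kinases and regulators, 3 were lower and 4 higher, with a median of -0.24, or 0.0 with protocols at or under 3 counts set to that floor. LYN fell by 2.71 (SE 0.17, adjusted p = 4.1e-13), and FGR, at 0.63 CPM in primed cells, did not pass the test (adjusted p = 0.11) and had a log2 fold change of -0.07 with the floor. FYN rose by 0.87 (adjusted p = 3.5e-11) and the adaptor PAG1, which recruits the inhibitory kinase CSK, by 2.90 (adjusted p = 7.4e-11). In TL-CDK8/19i cells the mean of LYN was 63.7 CPM beside 48.3 in primed cells (log2 fold change 0.35, adjusted p = 0.07). In E-NHSM cells LYN fell by 1.41 (adjusted p = 8e-06). Of the list, 3 of 10 were lower in E-NHSM and the rest did not pass, and 1 was lower and 3 higher in TL-CDK8/19i.

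The cAMP phosphodiesterases were split. Of 15 tested genes 4 were lower and 7 higher, with a median of 0.53, or 0.41 over genes above the floor in primed cells with the floor applied. PDE4C, at 2.39 CPM in primed cells, fell (adjusted p = 1.6e-06), with a log2 fold change of -2.90 when protocols at or under 3 counts are set to that floor, and PDE8A fell by 3.08 (SE 0.28, adjusted p = 2.7e-10), while PDE1C rose by 3.46 from 0.801 CPM (SE 0.51, adjusted p = 1.6e-06). PDE1A, at 0 in all primed libraries, reached at most a mean of 1.46 CPM in the 5 protocols. PDE4D, a relative of PDE4B singled out after its values were seen, rose by 2.82 (SE 0.12, adjusted p = 3.7e-17). It went from 7.96 CPM in primed cells to means of 23 CPM in t2iLGöY and 345 CPM in NHSM-v. PDE4D stood at 184 CPM in TL-CDK8/19i and 8.06 CPM in E-NHSM. Of 13 phosphodiesterases tested, 2 were lower and 1 higher in E-NHSM and 3 lower and 6 higher in TL-CDK8/19i.

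All 9 other diacylglycerol kinases passed the test, 5 lower and 4 higher, with a median of -0.16. DGKB and DGKG fell (adjusted p = 1.9e-09 and 0.036), with log2 fold changes of -5.22 and, from 1.75 CPM, -1.82 with that floor, whereas DGKQ and DGKI rose by 2.51 and 2.76 (adjusted p = 8.1e-09 and 2e-05) from 2.92 and 0.587 CPM. In E-NHSM 1 of 8 was lower and 1 higher. In TL-CDK8/19i 2 of 9 were lower and 3 higher.

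Of 20 genes of selenium use, 11 were lower and 2 higher, with a median of -0.38. SEPP1, the selenoprotein that carries selenium in plasma, fell by 5.22 with that floor (adjusted p = 4.2e-11) and SELM by 1.19 (SE 0.18, adjusted p = 1.7e-06). DIO3, a thyroid hormone deiodinase, went from a mean of 0.134 CPM in primed cells to means of 12.1 to 85.3 CPM (adjusted p = 1e-18), and DIO2, with a value of 1.38 from 0.564 CPM, did not pass the test (adjusted p = 0.12). SEPHS2, the enzyme that makes selenophosphate, was singled out after its values were seen and fell by 0.67 (SE 0.11, adjusted p = 7.3e-06). In E-NHSM 3 of 19 were lower and 6 higher, and in TL-CDK8/19i 3 of 20 were lower and 7 higher.

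In E-NHSM and TL-CDK8/19i the tested genes of the list of osteopontin relatives and receptors were integrins and CD44, since the relatives IBSP, DMP1, MEPE and DSPP were not tested there. In E-NHSM cells 4 of 8 tested genes were lower than in primed cells and the others did not pass the test, and in TL-CDK8/19i cells 1 was lower and 6 higher, with medians of -0.59 and 2.15; the difference between these lists of calls was not tested. In the average of the 5 protocols 2 of 9 were lower and 3 higher, and IBSP, tested only there, did not pass the test (adjusted p = 0.25). ITGB5 fell by 2.37 there (SE 0.06, adjusted p = 8.6e-21) and was also lower in E-NHSM and TL-CDK8/19i, by log2 values of -0.26 and -1.19 (adjusted p = 0.017 and 9.3e-08), ITGA8 and CD44 rose by 2.04 and 2.30 (adjusted p = 1.7e-05 and 1.1e-14), and ITGB3, at -1.33, did not pass the test (adjusted p = 0.071). ITGAV and ITGB1, subunits of osteopontin receptors singled out after their values were seen, rose by 1.83 and 2.11 in TL-CDK8/19i (adjusted p = 3.7e-08 and 2.8e-09) and fell by 1.71 and 1.47 in E-NHSM (adjusted p = 2e-08 and 3.7e-09). Both integrins are also abundant in fibroblasts, whose summed markers were 331 to 357 CPM in E-NHSM and 2550 to 3140 CPM in TL-CDK8/19i libraries, and the part of such cells in these values was not tested.

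Of 4 tested relatives of AADACL3 and ISOC1, 2 were lower and the others did not pass the test. AFMID and ISOC2 fell by 0.77 and 0.58 (adjusted p = 0.024 and 0.021), and LIPE and NCEH1 had values of 0.01 and 0.06 (adjusted p = 0.99 and 0.82). In TL-CDK8/19i cells NCEH1 rose by 1.41 (adjusted p = 0.00017). AADACL4, the gene next to AADACL3, was at a mean of 0.126 CPM in primed cells and too low to test.

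The core pluripotency genes give a scale for these values. In the average of the 5 protocols PRDM14 was at -9.76, TDGF1 at -9.18 and NANOG at -9.06 when protocols at or under 3 counts are set to that floor. POU5F1, to which the floor did not apply, was at -9.64. All 10 core genes were lower in that average, with SALL4 at -3.85 and SOX2 at -1.19 (largest adjusted p of the 10, 4.2e-13). In E-NHSM cells 2 were lower and 4 higher, and their median was 0.18 while that of the 10 genes was -1.25. In TL-CDK8/19i cells all 10 core genes were lower, and the medians were -1.29 and -1.70.

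The genes whose levels followed each of the 10 most closely over the 27 libraries were found among 14752 genes by Pearson's r of log2 CPM. The points share groups, so r describes mainly the 8 group means, and it is given without a p-value. For LCK they were POU5F1 (r = 0.981), IFITM1 (0.978) and DNMT3B (0.977), of which POU5F1 and DNMT3B are on the list of core pluripotency genes. SSB was followed by TERF1 (0.985), SERBP1 (0.979) and LYAR (0.979), PDE4B by NLGN4X (0.966), CTSC (0.957) and TERF1 (0.949), and JADE2 by MFGE8 (0.964), TTF2 (0.962) and HDLBP (0.962). AADACL3 was followed by F11R (0.976), VTCN1 (0.976) and VRTN (0.972), and SEPHS1 by CTBP2 (0.962), UGP2 (0.957) and VSIG10 (0.95).

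KIAA1551 and DGKK were each among the 3 genes most like the other (r = 0.954). KIAA1551 was also followed by LARP7 (0.962) and CA11 (0.95), and DGKK by ZFP36L2 (0.943) and ZNF732 (0.929). ISOC1 was followed by MCM4 (0.942), MCM6 (0.924) and SLC16A1 (0.922), of which the MCM genes encode subunits of the replicative helicase. SPP1 followed RNF213 (0.973), SLC38A4 (0.969) and USP9X (0.967). SLC38A4, an amino acid transporter, moved in the same directions, with means of 15.7 CPM in primed, 151 CPM in TL-CDK8/19i and 1.84 CPM in E-NHSM cells. The steps were of other sizes, as SPP1 had means of 1630, 3230 and 69.6 CPM there. In the other 5 protocols SLC38A4 had means of at most 0.307 CPM. Among the 10 genes themselves r ran from 0.69 for SSB with SPP1 to 0.95 for DGKK with KIAA1551. The primed libraries are part of these values and the 10 genes were chosen for their fall from them. A high r between the 10 genes was therefore set by that choice, and nothing is read from it.

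The 2 nearest genes with counts on each side of each of the 10 genes in the RefSeq gene table were examined after the data were seen. Of 40 such neighbours 31 could be tested in the average of the 5 protocols, and 10 were lower and 16 higher than in primed cells. Of all genes tested, 34.2% were lower and 34.4% higher. The median log2 fold change was 0.27 over the neighbours and 0.04 over all genes. LEPR, the leptin receptor gene beside PDE4B, fell by 2.72 (SE 0.19, adjusted p = 3.2e-12), DHRS3, a retinaldehyde reductase gene near AADACL3, by 2.67 (SE 0.42, adjusted p = 4.3e-06), and ABCG2, a transporter gene near SPP1, by 2.04 (SE 0.15, adjusted p = 8.9e-12). HDAC1 and EIF3I near LCK fell by 0.76 and 0.67 (adjusted p = 5.3e-07 and 3.5e-09), while MARCKSL1 near LCK rose by 0.27 (adjusted p = 6.1e-05). Near PDE4B, LEPROT and SGIP1 rose by 0.62 and 3.15 (adjusted p = 4e-06 and 1.5e-05), SGIP1 from 0.657 CPM. At the other end FBN2 near ISOC1 rose by 3.49 (SE 0.17, adjusted p = 2.2e-15). All 4 neighbours of KIAA1551 were higher, by 0.55 to 1.31.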

How the data were processed

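Messenger RNA of rhesus ESCs was sequenced as 27 directional single-read libraries. The authors deposited raw counts per gene symbol, with 1 column per library and without pooling. The submitters' processing notes name bcl2fastq, cutadapt, HISAT2 and HTSeq, and the genome build, the annotation and the strand setting of the counting are not given in the sources used here, so reads of overlapping genes and of near-identical copies cannot be told apart. All 27 columns were assigned by name, with 0 columns left over and 0 rows that name no gene. Columns of primed cells match the group only, since their letters J and K are in no sample label. All 36 pairs of libraries of a group differed by more than sampling noise (chi-square per gene from 3.98 to 29.8). Depth was 7111886 to 20760914 counts. A share or floor rests on counting error only.

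Levels are TMM-scaled CPM. Tests used edgeR 4.0.16 (R 4.3.3), its quasi-likelihood fit on the libraries of the groups compared, filterByExpr, and Benjamini-Hochberg adjustment over all genes tested with a threshold of 0.05. Standard errors were taken from the F statistic and 95% intervals from the t distribution with the fit's degrees of freedom. The floor was 3 counts per library. The procedure was tested on simulated data. Alternatives were DESeq2 1.42.0, upper-quartile scaling, other filters, all 8 groups in one fit, a replicate block, each library left out, and, chosen after seeing the data, the J or the K columns alone. The genes and all lists were chosen with earlier results of these data known. The 2 lowest and 2 highest tested genes of each list are named, by fitted fold change in the average of the 5 protocols. Fitted values there are without the floor. For each of the 10 genes the 3 with the highest correlation (log2 CPM, prior count 2) are named. Gene neighbours came from the RefSeq gene table of assembly T2T-MMU8v2.0, of which no coordinates are printed because the build of the counts is not known. Promoter and protein sequences were not used here.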

Additional observations from a re-analysis of the deposited data

Results flagged for a closer look

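SPP1 was set apart by 1 primed library. K1 held 2810 CPM, beyond the Dixon limit for 6 samples, where chance marks about 1 group in 20. Without it the log2 fold change of TL-CDK8/19i against primed cells was 1.18 in place of 0.94, and with the J columns alone it was 1.19. Over all 15 alternatives that value ran from 0.74 to 1.19.

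Differences from primed cells were unlike in TL-CDK8/19i and E-NHSM by the direct test of those protocols for 5 genes, with log2 values of TL-CDK8/19i against E-NHSM of -2.40 for SSB, -0.42 for KIAA1551, -1.45 for LCK, -2.29 for PDE4B and 5.53 for SPP1. Fibroblast markers, at 331 to 357 CPM in E-NHSM and 2550 to 3140 CPM in TL-CDK8/19i libraries, moved with this comparison, and their part in it was not tested.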

How the results depend on the processing

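The counts of the 10 genes called between TL-CDK8/19i and E-NHSM, 4 lower and 1 higher, and among the 5 other protocols, 9, stayed within 1.5 times the main count under every alternative run, and all log2 fold changes against primed cells kept their sign. With at least 10 counts required in every library, LCK, PDE4B, JADE2 and AADACL3 could not be tested in the 5 protocols. The replicate block gave 4 genes lower and 1 higher and 9 among the 5 protocols. Same-numbered libraries did not deviate together (r from -0.0242 to -0.0205 for E-NHSM with TL-CDK8/19i and -0.0353 to 0.064 among the 5), and the block moved the calls over all genes from 8156 to 7860 and from 11385 to 11250.

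Requiring an absolute log2 fold change of 1 as well left 18 list genes lower and 14 higher in the average of the 5 protocols, 8 and 1 in E-NHSM, and 8 and 16 in TL-CDK8/19i. List genes higher in E-NHSM ranged from 5 to 13 with 1 library left out, with 6 without E-NHSM replicate 1 and 5 without E-NHSM replicate 3. Between TL-CDK8/19i and E-NHSM, SEPHS1 and AADACL3 changed sign, never past the threshold. SEPHS1 was -0.01 without TL-CDK8/19i replicate 3, within a leave-one-out range of -0.01 to 0.2. AADACL3 was -0.08 with upper-quartile scaling and ranged from -0.03 to 0.1 with 1 library left out. The cause was not tested. Depth limits LCK and AADACL3, which are at 0 in whole groups.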
